A study of Mus musculus with 24 samples.

Results

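The family of miR-15, miR-16, miR-195a and miR-497a was examined in mouse subcutaneous adipose tissue through 8 mature miRNAs, mmu-miR-15a-5p, mmu-miR-15b-5p, mmu-miR-15b-3p, mmu-miR-16-5p, mmu-miR-16-1-3p, mmu-miR-16-2-3p, mmu-miR-195a-5p and mmu-miR-497a-5p, written without the mouse prefix from here on. They were listed by family name, with earlier results of these data known, and are 8 of the 1907 miRNA names counted. All 8 passed the filter on low counts and are among the 558 miRNAs tested. Small RNA sequencing libraries had been made from this tissue after high-fat or control feeding for 3 times each, with 4 libraries in each of 6 groups. The groups were high-fat diet at day 1, week 1 and week 3, and control diet at day 1, week 1 and week 3. The sources used here do not give the strain, age or sex of the mice, the make-up of the diets, or whether replicate libraries are from different animals. The p-values therefore measure only how far these samples scatter, which may be technical.

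A microRNA is a short RNA that guides an Argonaute protein to messenger RNAs whose sequence pairs with its seed, bases 2 to 8 from the 5′ end, and so lowers their translation and stability. Members of this family share a seed and are known for repressing cyclins, cyclin-dependent kinases and the survival factor Bcl2, and thereby for restraining cell division and favouring cell death. They are transcribed from separate clusters, so the same target set can be reached from several genes. In adipose tissue, fat cells, blood vessel cells, fibroblast-like stromal cells and leukocytes all contribute RNA to the sample.

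The guide arms, the strands of each hairpin that are mainly loaded into Argonaute, are printed first because the shared seed defines the family. Sequences and positions are from RefSeq on GRCm38.p6, the build called mm10 in the submitters' processing notes, and all 8 names matched. Each is written 5′ to 3′ in lower case with the seed in capitals.
miR-15a-5p: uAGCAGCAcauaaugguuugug
miR-15b-5p: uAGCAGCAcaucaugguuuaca
miR-16-5p: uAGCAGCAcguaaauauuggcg
miR-195a-5p: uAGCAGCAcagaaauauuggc
miR-497a-5p: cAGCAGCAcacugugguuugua

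Over the whole mature sequence, seed included, some pairs of guide arms are more alike than others. miR-16-5p and miR-195a-5p are identical at 19 of 21 positions, miR-15a-5p and miR-15b-5p at 18 of 22, and miR-16-5p and miR-497a-5p at 11 of 22. In all, 10 names in the table have this seed. The other 5 are miR-322-5p, miR-195b, miR-6342, miR-6353 and miR-6419, of which the last 3 were listed at 0 in every library and miR-195b had 5 counts in all. The 5 guide arms printed above held 94.1% of the counts with this seed, and miR-322-5p held 5.91%.

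The 3 passenger arms, the opposite strands of the hairpins, are printed because they tell the gene copies apart. Each has a seed of its own, again in capitals.
miR-15b-3p: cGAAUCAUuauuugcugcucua
miR-16-1-3p: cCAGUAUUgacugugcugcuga
miR-16-2-3p: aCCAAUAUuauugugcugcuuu

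The same miR-16-5p sequence is encoded by 2 genes, Mir16-2 on chromosome 3 and Mir16-1 on chromosome 14, so a miR-16-5p count cannot be assigned to either gene. The passenger arms miR-16-2-3p and miR-16-1-3p match at 12 of 22 positions and so tell the 2 copies apart. Their levels need not give the output of each copy. The hairpins below have both mature arms in capitals and show the identical 5′ arm beside the different 3′ arm.
Mir16-2: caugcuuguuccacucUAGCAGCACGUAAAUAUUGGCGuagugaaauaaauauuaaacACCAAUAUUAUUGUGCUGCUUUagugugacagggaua
Mir16-1: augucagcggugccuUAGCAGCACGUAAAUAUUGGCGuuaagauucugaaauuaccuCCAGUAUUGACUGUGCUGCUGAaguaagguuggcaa

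The 8 members come from 3 loci. Mir15b and Mir16-2 lie 66 bases apart on the plus strand of chromosome 3 (Mir16-2 at chr3:69009902-69009996), in an intron of Smc4, which encodes a condensin subunit used to compact chromosomes. Mir15a and Mir16-1 lie on the minus strand of chromosome 14 (Mir16-1 at chr14:61631880-61631972), inside the long non-coding RNA gene Dleu2, and Mir16-1 overlaps an exon of at least 1 Dleu2 transcript in GENCODE. Mir497 and Mir195a lie 241 bases apart on the plus strand of chromosome 11 (Mir195a at chr11:70235042-70235135). Mir497b is annotated on the opposite strand over Mir497. No source used here says whether counting used strand, so counts of miR-497a-5p are uncertain in that respect.

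The libraries held 1.99 to 16.3 M (mega-counts), 5.30 M in the median library. Levels are CPM, counts scaled for library composition to a total of 1 M, and a floor of 3 counts was at most 1.48 CPM in any library, covering counting error only. The tissue label was checked with adipocyte miRNAs. Of the 5 listed, 4 were tested, and their summed level was between 143813 and 311524 CPM in every library. Most of that sum was miR-148a-3p, at 106889 to 266607 CPM, so the check rests mainly on that miRNA. miR-193b-3p was 100 to 259 CPM, and the untested miR-365-3p had 57 counts in all libraries together. Skeletal muscle miRNAs differed most among libraries. The muscle miRNA miR-1a-3p was between 13.1 and 65012 CPM, with the highest value in high-fat week 1 replicate 2.

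The 8 members took 0.329 to 0.570% of all counts in a library, with a median of 0.399%. Between 92.8 and 96.4% of those counts were guide arms. Over the 24 libraries miR-195a-5p averaged 1466 ± 268 CPM, miR-16-5p 1459 ± 409 CPM, miR-497a-5p 567 ± 113 CPM, miR-15b-5p 375 ± 135 CPM and miR-15a-5p 181 ± 42.0 CPM (SD, n = 24). Among the passenger arms, miR-16-1-3p averaged 135 ± 28.9 CPM, miR-15b-3p 60.5 ± 21.9 CPM and miR-16-2-3p 18.97 ± 7.44 CPM (SD, n = 24). Ranked by mean level among the 558 tested miRNAs, miR-195a-5p stood at 60 and miR-16-2-3p at 311. Each library gives its own order. miR-195a-5p was above miR-16-5p in 11 of 24 libraries, miR-497a-5p above miR-15b-5p in 20 of 24 and miR-15a-5p above miR-16-1-3p in 19 of 24, and these neighbours did not differ beyond the SD of their log2 difference. The other neighbours did: miR-16-5p was above miR-497a-5p, miR-16-1-3p above miR-15b-3p and miR-15b-3p above miR-16-2-3p in 24 of 24 libraries, and miR-15b-5p above miR-15a-5p in 22 of 24. miRNAs differ in how well they are ligated in library preparation, so this is an order of counts.

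**Figure D1:**
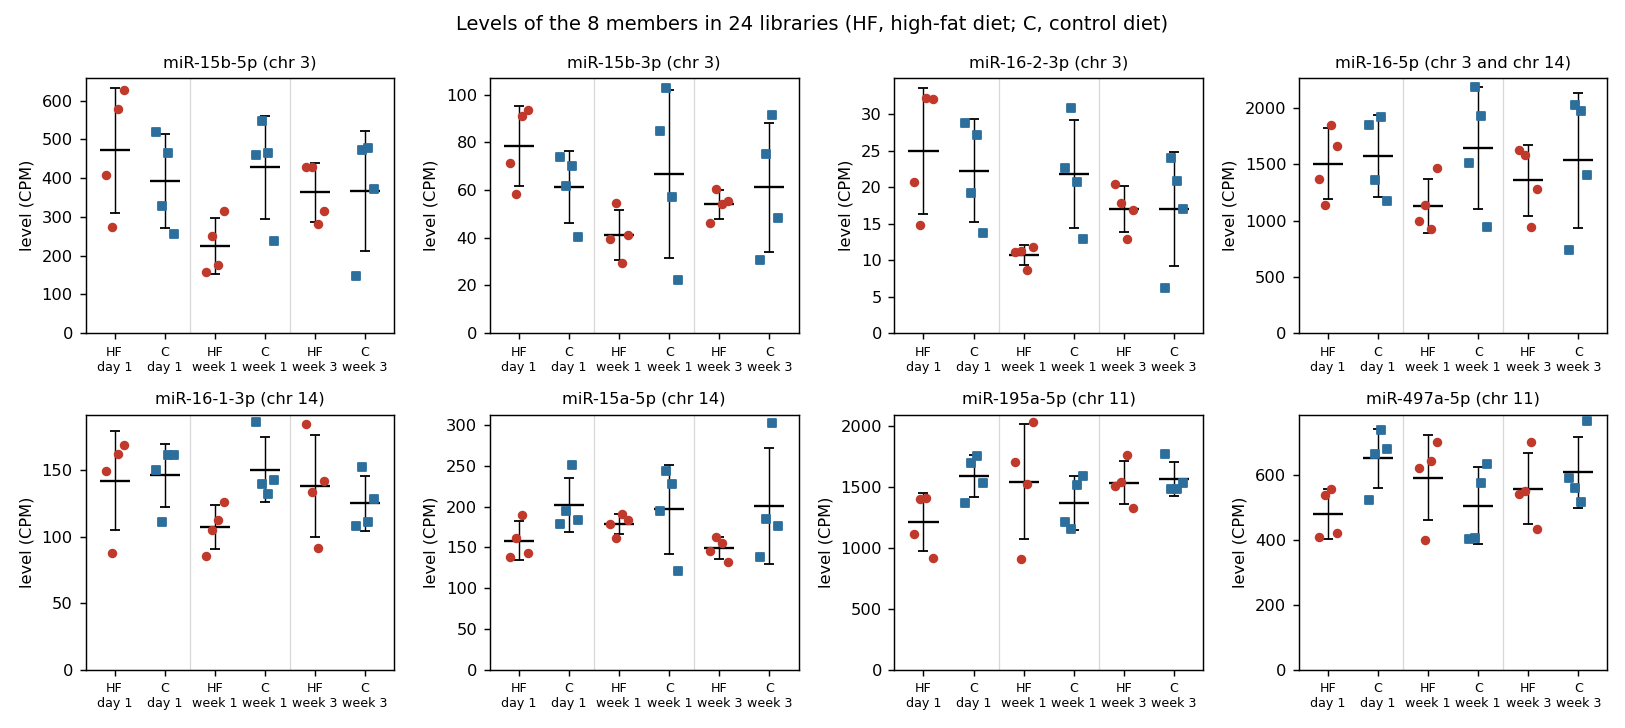
Level of each member (CPM, linear axis from 0) in every library, 1 point per library, with high-fat groups in red circles and control groups in blue squares; the long bar is the mean and the error bar the SD of 4 libraries. In the high-fat week 1 libraries miR-16-2-3p was 8.71 to 11.9 CPM and miR-16-1-3p 85.8 to 126 CPM, below all 4 control week 1 libraries, and for every other member and time the 2 diets overlap.

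The members differed in how much they varied between libraries of a group. The pooled within-group SD on the log2 scale was 0.54 for miR-15b-5p, 0.56 for miR-15b-3p and 0.52 for miR-16-2-3p, all from chromosome 3. It was 0.30 for miR-15a-5p and 0.31 for miR-16-1-3p from chromosome 14, and 0.28 for both miR-195a-5p and miR-497a-5p from chromosome 11. miR-16-5p, made from chromosomes 3 and 14, had 0.44, and the median of all tested miRNAs was 0.41. The highest library exceeded the lowest 5.22-fold for miR-16-2-3p and 4.24-fold for miR-15b-5p, but 1.91-fold for miR-497a-5p. Control week 3 replicate 1 was the lowest library for miR-15b-5p, miR-16-5p and miR-16-2-3p.

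High-fat feeding was set against control feeding at each time, the question in the series' design. No member passed the adjusted threshold at any time, and the lowest unadjusted p-values in the family were those of miR-16-2-3p and miR-15b-5p at week 1, which are therefore given first. miR-15b-5p was 157, 252, 175 and 314 CPM in the 4 high-fat week 1 libraries, against 460, 547, 465 and 238 CPM in the 4 control week 1 libraries. The groups overlapped through control replicate 4, which lay between the high-fat values. Its mean was 225 ± 72.3 CPM on high-fat and 428 ± 132 CPM on control diet (SD, n = 4 each). The log2 fold change was -0.93 (SE 0.34, edgeR unadjusted p = 0.0123, adjusted p = 0.225).

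miR-16-2-3p, the passenger arm of the chromosome 3 copy of miR-16, was 11.1, 11.3, 8.71 and 11.9 CPM in high-fat week 1 libraries, against 22.7, 30.9, 20.7 and 12.96 CPM in control week 1 libraries. Every high-fat library was below every control library, by a small margin at control replicate 4. Its log2 fold change was -1.02 (SE 0.35, edgeR unadjusted p = 0.00750, adjusted p = 0.225), which did not pass the adjusted threshold of 0.05.

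miR-15b-3p, the passenger arm beside miR-15b-5p, was 39.4, 54.6, 29.4 and 41.1 CPM in high-fat week 1 libraries, against 84.7, 103, 57.2 and 22.1 CPM in control week 1 libraries. The groups overlapped because control replicate 4 had the lowest value of all 24 libraries. Its log2 fold change was -0.69 (SE 0.36, edgeR adjusted p = 0.373), and -0.31 without control replicate 2. miR-16-5p, the guide made from both copies, was 995, 1136, 923 and 1472 CPM on high-fat and 1514, 2193, 1930 and 945 CPM on control diet at week 1. Again only control replicate 4 lay within the high-fat range, and the log2 fold change was -0.54 (SE 0.29, edgeR adjusted p = 0.373), and -0.30 without control replicate 2.

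On chromosome 14, miR-16-1-3p was 85.8, 105, 113 and 126 CPM in high-fat week 1 libraries, against 186, 140, 132 and 143 CPM in control week 1 libraries. The groups did not overlap, and the log2 fold change was -0.48 (SE 0.22, edgeR unadjusted p = 0.0388, adjusted p = 0.313). Its cluster mate miR-15a-5p was 178, 161, 190 and 183 CPM on high-fat and 194, 244, 227 and 121 CPM on control diet. The high-fat values lay within the control range, with a log2 fold change of -0.14 (SE 0.22, edgeR adjusted p = 0.780), and without control replicate 2 the estimate was 0.05.

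On chromosome 11, miR-195a-5p was 1704, 910, 1519 and 2029 CPM in high-fat week 1 libraries, against 1212, 1150, 1514 and 1591 CPM in control week 1 libraries. High-fat replicate 2 was the lowest of the 24 libraries and high-fat replicate 4 the highest, so this group spanned the whole range of the miRNA. The log2 fold change was 0.17 (SE 0.20, 95% interval -0.23 to 0.58, edgeR adjusted p = 0.683). miR-497a-5p had 0.23 (SE 0.20, interval -0.19 to 0.65, edgeR adjusted p = 0.621), with high-fat replicate 2 again the lowest library at 402 CPM.

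At week 1, 0 of 8 members passed an adjusted p of 0.05 in edgeR, and 0% of the 558 tested miRNAs did. At an unadjusted p under 0.05, 3 of 8 members were lower on high-fat diet, beside 9.14% of all tested miRNAs. DESeq2 likewise called 0 members and 0% of all, while limma-voom with sample quality weights called 1 member, miR-15b-5p, and 3.05% of all (log2 fold change -1.17, adjusted p = 0.0419). The 2 members whose libraries did not overlap between diets, miR-16-1-3p and miR-16-2-3p, compare with 1.97% of all tested miRNAs separated in that direction. The median log2 fold change was -0.51 over the 8 members and -0.02 over all tested miRNAs. The members are not independent, since arms of a hairpin and neighbours in a cluster share a transcript.

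**Figure D2:**
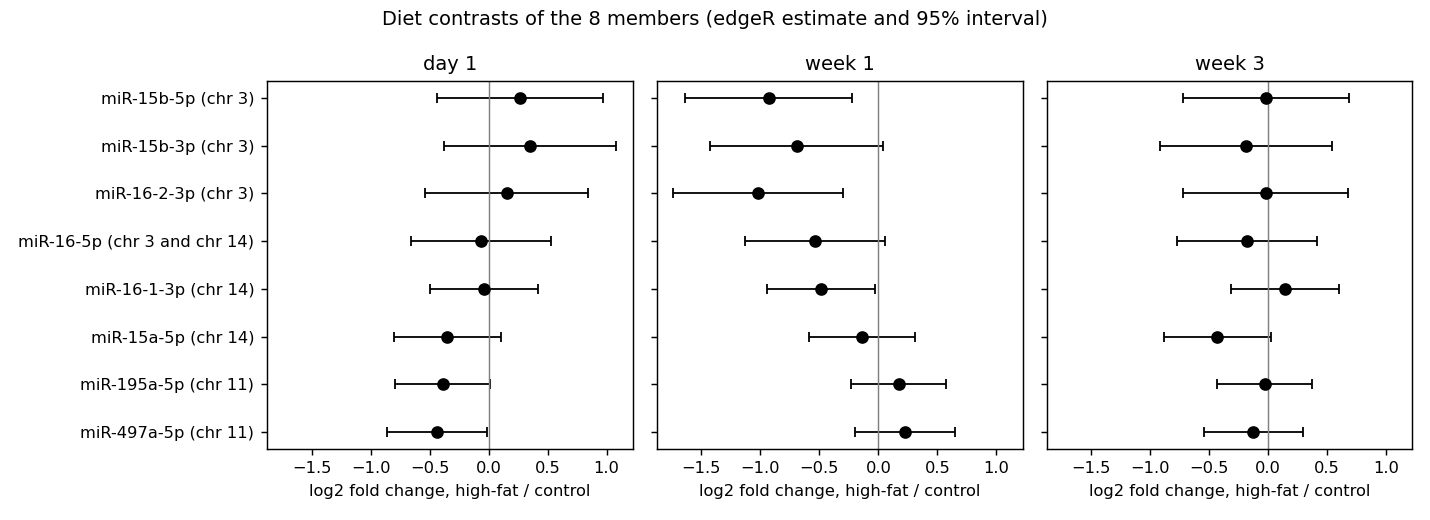
Log2 fold change of each member, high-fat over control, at day 1, week 1 and week 3; points are edgeR estimates and bars their 95% intervals. At week 1 the estimates run from -1.02 for miR-16-2-3p to 0.23 for miR-497a-5p, and at day 1 and week 3 they lie between -0.44 and 0.35.

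At day 1 the estimates of 5 of the 8 members were below 0, and the lowest were those of miR-497a-5p and miR-195a-5p. miR-497a-5p was 409, 540, 557 and 422 CPM in high-fat day 1 libraries, against 525, 667, 740 and 680 CPM in control day 1 libraries. Its groups overlapped through control replicate 1, and its log2 fold change was -0.44 (SE 0.20, edgeR unadjusted p = 0.0422, adjusted p = 0.982). miR-195a-5p was 1112, 1399, 1409 and 917 CPM on high-fat and 1363, 1693, 1749 and 1534 CPM on control diet, with a log2 fold change of -0.39 (SE 0.20, edgeR adjusted p = 0.982). These neighbours showed the same picture, with control replicate 1 the lowest control value of each. miR-15a-5p had -0.35, miR-15b-5p 0.26 and miR-15b-3p 0.35 (edgeR adjusted p = 0.982 for each). No member passed the adjusted threshold, as for 0% of all tested miRNAs, and 1 of 8 had an unadjusted p under 0.05, beside 3.05% of all. DESeq2 and limma-voom also called 0 members, and each called 0% of all.

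At week 3 the estimates lay between -0.43 and 0.14. The lowest was miR-15a-5p, at 146, 163, 155 and 132 CPM in high-fat week 3 libraries, against 138, 185, 303 and 176 CPM in control week 3 libraries. The groups overlapped through control replicate 1, control replicate 3 was the highest of the 24 libraries, and the log2 fold change was -0.43 (SE 0.22, edgeR adjusted p = 0.999), and -0.15 without control replicate 3. miR-15b-5p was 430, 428, 281 and 316 CPM on high-fat and 148, 473, 479 and 372 CPM on control diet, so that the diets overlapped throughout. No member had an unadjusted p under 0.05 here, beside 1.79% of all tested miRNAs, and 0% of all passed the adjusted threshold. With DESeq2 and limma-voom the count of members called was 0 as well, beside 0% of all with each.

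Averaged over the 3 times, miR-15a-5p had the lowest estimate, -0.31 (SE 0.13, edgeR unadjusted p = 0.0233, adjusted p = 0.993). The estimate was -0.11 for miR-497a-5p and -0.08 for miR-195a-5p (edgeR adjusted p = 0.993 for each). All 8 mean estimates were below 0, as were 59.7% of all tested miRNAs. In this mean 0 members and 0% of all passed in edgeR, and 1 member had an unadjusted p under 0.05, beside 3.23% of all. Whether the diet difference itself differed between times was tested jointly. miR-16-2-3p had an unadjusted p of 0.0510 and miR-15b-5p of 0.0524 in edgeR (adjusted p = 0.567 for both), 0 members were under an unadjusted 0.05, beside 7.35% of all, and 0% of all passed. The 2 other tools called 0 members and 0% of all in the mean and in the joint test.

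Week 1 was set against day 1 within the high-fat diet. This comparison shares the high-fat week 1 libraries with that of the diets at week 1, so its estimates are not independent of those above. miR-15b-5p was 157 to 314 CPM in high-fat week 1 libraries, against 408, 274, 577 and 627 CPM in high-fat day 1 libraries. The ranges overlapped, with a log2 fold change of -1.07 (SE 0.34, edgeR unadjusted p = 0.00482, adjusted p = 0.128). miR-16-2-3p was 8.71 to 11.9 CPM at week 1, against 20.7, 14.8, 32.2 and 32.0 CPM at day 1. Every week 1 library was below every day 1 library, with a log2 fold change of -1.21 (SE 0.35, edgeR unadjusted p = 0.00228, adjusted p = 0.128).

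miR-15b-3p had -0.93 in that comparison (SE 0.36, edgeR adjusted p = 0.145), with 29.4 to 54.6 CPM at week 1 and 58.2 to 93.7 CPM at day 1. The 2 members whose week 1 libraries were all below the day 1 libraries, miR-15b-3p and miR-16-2-3p, compare with 5.73% of all tested miRNAs separated in that direction. The other high-fat estimates for week 1 against day 1 were -0.41 for miR-16-5p, -0.40 for miR-16-1-3p, 0.17 for miR-15a-5p, 0.35 for miR-195a-5p and 0.30 for miR-497a-5p. No member and 0% of all tested miRNAs passed the adjusted threshold in edgeR. At an unadjusted p under 0.05, 3 of 8 members were lower at week 1, beside 9.5% of all lower. DESeq2 called 1 member, miR-15b-5p (log2 fold change -1.11, adjusted p = 0.0339), and 5.73% of all, and limma-voom called the 3 chromosome 3 members (adjusted p from 0.0344 to 0.0499) and 7.89% of all.

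Within the control diet the 8 estimates for week 1 against day 1 lay between -0.37, for miR-497a-5p, and 0.12. No member passed, beside 0.179% of all tested miRNAs. For week 3 against day 1 the control estimates lay between -0.38, for miR-16-2-3p, and -0.00, with 0 members called, beside 0.358% of all. The high-fat estimates for week 3 against day 1 lay between -0.55 for miR-16-2-3p and 0.34 for miR-195a-5p, with 0 members called, beside 0% of all. In these 3 comparisons 0 members had an unadjusted p under 0.05, beside 13.6%, 14.9% and 15.8% of all tested miRNAs, and DESeq2 and limma-voom called 0 members. Of all tested miRNAs, DESeq2 called 1.25%, 1.08% and 1.97% in these comparisons, and limma-voom 3.94%, 0.717% and 2.51%.

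Averaged over both diets, miR-16-2-3p had -0.62 for week 1 against day 1 (SE 0.24, edgeR unadjusted p = 0.0168, adjusted p = 0.144) and miR-15b-5p had -0.47 (SE 0.24, adjusted p = 0.267). For week 3 against day 1 the means were -0.46 for miR-16-2-3p (edgeR adjusted p = 0.196) and 0.16 for miR-195a-5p (adjusted p = 0.471). At week 1, 0 members were called, beside 0.896% of all tested miRNAs, and at week 3, 0 members, beside 7.17% of all. At an unadjusted p under 0.05 there was 1 member at week 1, beside 21.1% of all, and there were 0 at week 3, beside 28%. DESeq2 and limma-voom called 0 members in both means, beside 6.63% and 5.91% of all at week 1 and 12.7% and 16.3% of all at week 3.

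A miRNA with the same seed that is not among the 8 members did pass. miR-322-5p, encoded on the X chromosome, was 206 ± 14.02 CPM in control week 1 libraries and 385 ± 62.7 CPM in control day 1 libraries (SD, n = 4 each). It fell at week 1 on control diet by 0.90 on the log2 scale (SE 0.17, edgeR adjusted p = 0.0118). The adjusted p was 0.0556 without control day 1 replicate 2 and 0.119 without control day 1 replicate 3, and 0.0571 with no filter on low counts. On high-fat diet the estimate was -0.36 (SE 0.17, edgeR adjusted p = 0.225). Over both diets it was -0.60 at week 3 against day 1 (SE 0.12, edgeR adjusted p = 0.00502). The other arm of its hairpin, miR-322-3p, had 0.01 at week 1 against day 1 on control diet (SE 0.27, edgeR adjusted p = 0.994). The neighbour miR-503-5p had 0.01 there as well (SE 0.26, edgeR adjusted p = 0.988). For week 3 against day 1 over both diets miR-322-3p had 0.05 and miR-503-5p 0.22 (edgeR adjusted p = 0.888 and 0.462). Whether the change of miR-322-5p differs from that of these 2 or of the members' guide arms was not tested.

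Members of 1 locus were then compared across the 24 libraries, using log2 levels and 31 relations in all, with permutation p-values. miR-15b-5p and miR-16-2-3p, which share the Smc4 intron, had Pearson r = 0.95 and Spearman rho = 0.97 (permutation p = 1e-05 for each, the smallest that 100000 permutations can give, adjusted p = 3.88e-05). The r was 0.95 without the 2 libraries farthest from the median and 0.94 for deviations from the group means. miR-195a-5p and miR-497a-5p had r = 0.86 and rho = 0.87 (permutation p = 1e-05 for each, adjusted p = 3.88e-05), with 0.85 without the 2 farthest libraries and 0.84 for the deviations. These pairs kept step within groups as well as between them.

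The chromosome 14 neighbours gave another value. miR-15a-5p and miR-16-1-3p had r = -0.02 and rho = 0.04 (permutation p = 0.927 and 0.869, adjusted p = 0.927 and 0.869). The r was 0.12 without the 2 farthest libraries and -0.05 for deviations from the group means. Among 557 other tested miRNAs, miR-16-1-3p stood at rank 309 by r with miR-15a-5p. The difference between this correlation and those of the other loci was not tested, and both chromosome 14 members had a smaller spread between libraries than the chromosome 3 members.

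miR-16-5p followed the passenger arm of its chromosome 3 copy with r = 0.89 and rho = 0.87 (permutation p = 1e-05 for each, adjusted p = 3.88e-05), and 0.83 without the 2 farthest libraries. With the passenger arm of its chromosome 14 copy it had r = 0.55 and rho = 0.51 (permutation p = 0.00529 and 0.0123, adjusted p = 0.0126 and 0.0238), and 0.52 without the 2 farthest libraries. The 2 passenger arms had r = 0.62 and rho = 0.67 with each other (permutation p = 0.00124 and 0.0004, adjusted p = 0.00384 and 0.00124), and 0.62 without the 2 farthest. For deviations from the group means these 3 values of r were 0.93, 0.46 and 0.48. All values come from the same libraries and scaling, so they share depth and composition.

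**Figure D3:**
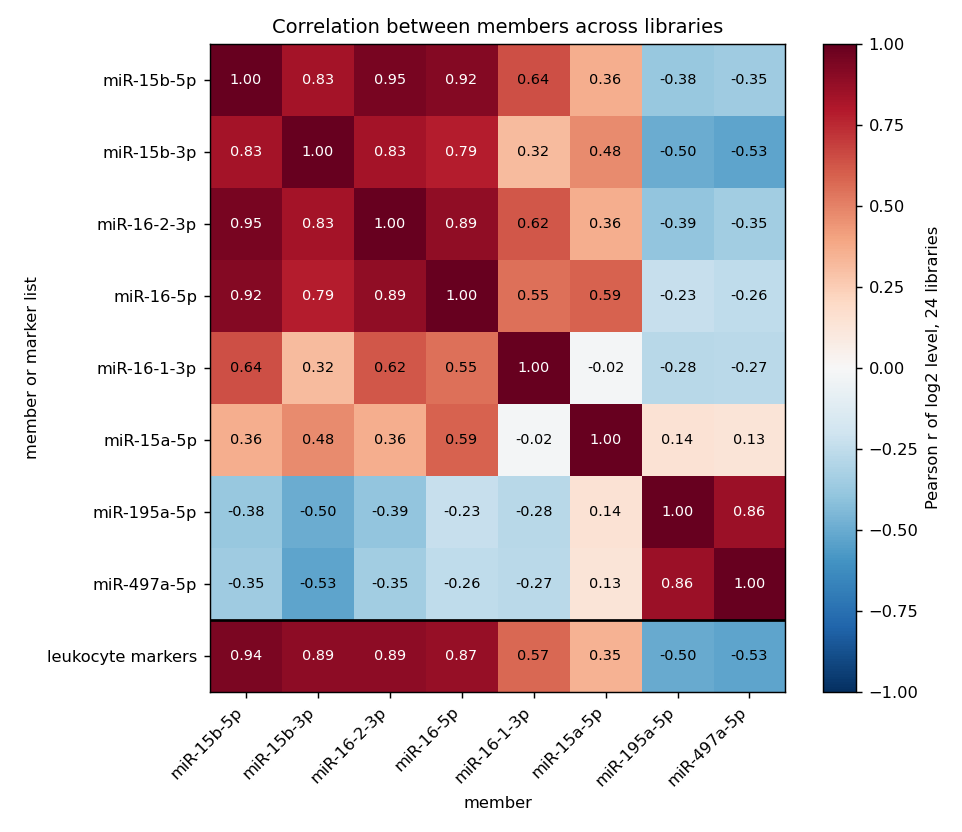
Pearson r of log2 levels between members, and between members and the mean log2 level of 10 leukocyte miRNAs (bottom row), over 24 libraries; the colour scale runs from -1 to 1. The chromosome 3 members and miR-16-5p form a block between 0.79 and 0.95, miR-195a-5p and miR-497a-5p a pair at 0.86, and miR-15a-5p with miR-16-1-3p stands at -0.02.

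By the same measure, the other tested miRNAs most like miR-15b-5p over the 24 libraries were miR-20b-5p, miR-106a-5p and miR-16-2-3p (r = 0.95 each). Those most like miR-16-5p were miR-15b-5p (r = 0.92), miR-19a-3p (r = 0.90) and miR-130b-3p (r = 0.89), and miR-16-2-3p was followed most closely by miR-15b-5p, miR-130b-3p and miR-19a-3p. For miR-15b-3p they were miR-342-5p (r = 0.92), miR-669e-5p and miR-191-5p. The chromosome 11 guides had each other and miR-218-5p among their 2 closest, with miR-214-5p next for miR-195a-5p and miR-96-5p next for miR-497a-5p. miR-16-1-3p was closest to miR-148b-5p, miR-140-3p and miR-7649-5p (r = 0.83, 0.83 and 0.82), and miR-15a-5p to miR-223-3p, miR-29a-3p and miR-29b-3p (r = 0.67, 0.67 and 0.65). Among these, miR-342-5p and miR-223-3p are on the list of leukocyte miRNAs used below. These are descriptions without a test.

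Leukocyte miRNAs moved with part of the family. The list held 10 miRNAs, all 10 tested, including the blood-cell miR-142a-3p, the lymphocyte miR-150-5p and the myeloid miR-223-3p, and none of them is a family member. These miRNAs did not vary alike over the 24 libraries. miR-142a-3p was 1048 to 18618 CPM and miR-150-5p 675 to 8410 CPM, but miR-223-3p only 138 to 293 CPM and miR-223-5p 75.5 to 152 CPM. How far single miRNAs carry the relations of the list was not tested. The summed level of the 10 was 23970 to 52201 CPM in high-fat day 1 libraries, against 17595 to 40519 CPM in control day 1 libraries. It was 6001 to 21889 CPM in high-fat week 1 libraries (median 12085), against 11800 to 50566 CPM in control week 1 libraries (median 36920). At week 3 it was 14245 to 29016 CPM on high-fat and 5445 to 36499 CPM on control diet. The lowest summed level in control week 3 and in control week 1 was that of replicate 1 and of replicate 4, the libraries that were also lowest for miR-15b-5p in those groups.

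Across the 24 libraries the mean log2 level of this list had r = 0.94 and rho = 0.92 with miR-15b-5p, r = 0.89 and rho = 0.95 with miR-15b-3p, r = 0.89 and rho = 0.92 with miR-16-2-3p, and r = 0.87 and rho = 0.85 with miR-16-5p (permutation p = 1e-05 for each, adjusted p = 3.88e-05). Without the 2 farthest libraries these r were 0.91, 0.87, 0.84 and 0.82, and for deviations from group means 0.91, 0.89, 0.86 and 0.89. The relation was therefore present among libraries of 1 diet and time. miR-16-1-3p had r = 0.57 and rho = 0.57 (permutation p = 0.00339 and 0.00406, adjusted p = 0.00876 and 0.00899), 0.56 without the 2 farthest libraries and 0.43 for the deviations. miR-15a-5p had r = 0.35 and rho = 0.37 (permutation p = 0.0942 and 0.0791, adjusted p = 0.146 and 0.129), 0.37 without the 2 farthest libraries and 0.57 for the deviations.

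The chromosome 11 guides ran the other way. miR-195a-5p had r = -0.50 and rho = -0.67 with the leukocyte list (permutation p = 0.0126 and 0.0004, adjusted p = 0.0244 and 0.00124), and miR-497a-5p r = -0.53 and rho = -0.63 (permutation p = 0.00751 and 0.00128, adjusted p = 0.0166 and 0.00361). Without the 2 farthest libraries these were -0.50 and -0.57, and for the deviations -0.49 and -0.54. In bulk tissue, fewer cells of a type and less RNA per cell cannot be told apart, and the part of the leukocyte miRNAs in the week 1 difference was not tested.

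**Figure D4:**
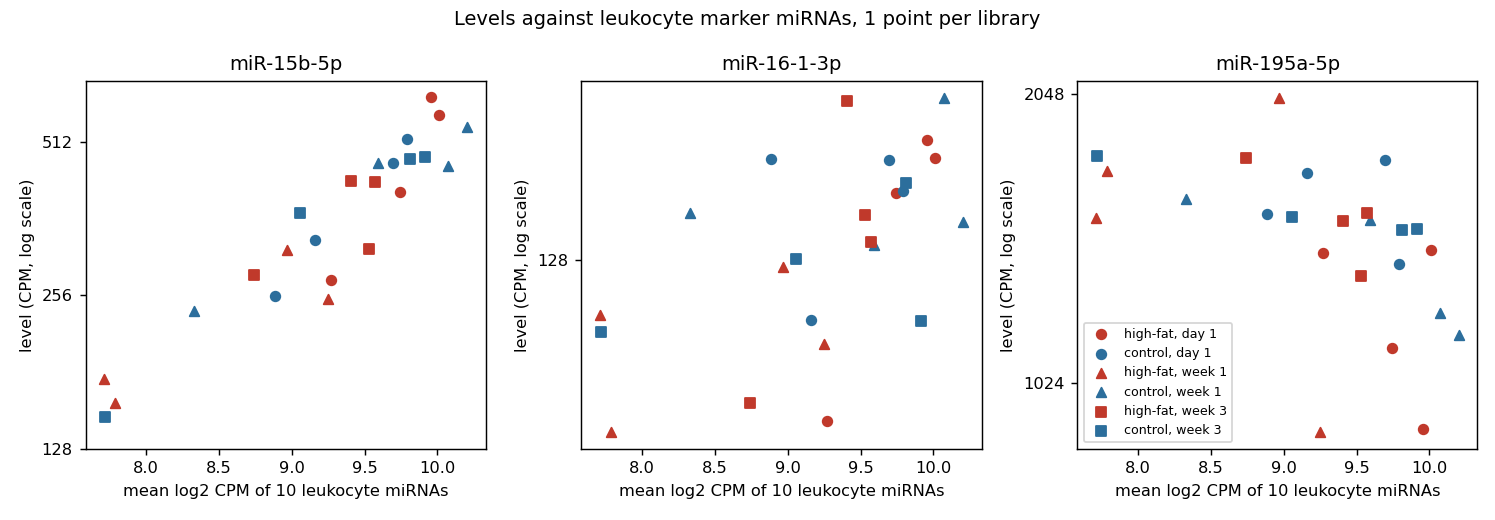
Level of miR-15b-5p, miR-16-1-3p and miR-195a-5p (CPM, log axis) against the mean log2 CPM of 10 leukocyte miRNAs, 1 point per library, with colour for diet and shape for time. The 3 libraries at the left, replicates 1 and 3 of high-fat week 1 with replicate 1 of control week 3, have 148 to 175 CPM of miR-15b-5p, the lowest of the 24.

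The difference at week 1 was recomputed without those 3 libraries, a choice made after seeing the data that itself narrows the gap in leukocyte miRNAs. miR-15b-5p then had a log2 fold change of -0.48 (edgeR unadjusted p = 0.177, adjusted p = 0.916) and miR-16-2-3p of -0.79 (edgeR unadjusted p = 0.0511, adjusted p = 0.863). The 2 libraries highest in skeletal muscle miRNAs, high-fat week 1 replicate 2 and control week 1 replicate 4, were left out instead. This choice was likewise made after seeing the data and itself widens the gap in leukocyte miRNAs. It also drops the control week 1 library lowest in miR-15b-5p, miR-15b-3p and miR-16-2-3p, which itself widens their differences. For miR-15b-3p it also drops the highest high-fat week 1 library. It gave -1.16 for miR-15b-5p and -1.21 for miR-16-2-3p (edgeR adjusted p = 0.0483 for both) and -1.12 for miR-15b-3p (adjusted p = 0.0362), beside 9.06% of all tested miRNAs (51 of 563). For week 1 against day 1 on high-fat diet it called 1 member, miR-15b-3p (log2 fold change -1.14, edgeR adjusted p = 0.0446), beside 2.31% of all. Skeletal muscle miRNAs, 6 of 7 tested, summed to 131 to 80437 CPM in high-fat week 1 libraries, against 543 to 18487 CPM in control week 1 libraries. With the 8 members they had r between -0.38 and -0.04 and rho between -0.37 and -0.14, with no adjusted permutation p under 0.122. For deviations from the group means their r lay between -0.58, for miR-195a-5p, and 0.06, with -0.41 for miR-497a-5p. Erythrocyte miRNAs, of which 6 of 7 were tested, had r = -0.63 and rho = -0.59 with miR-16-2-3p (permutation p = 0.00104 and 0.00286, adjusted p = 0.00358 and 0.00682), with r = -0.46 without the 2 farthest libraries and -0.56 for the deviations. The r was -0.58 with miR-15b-3p, -0.52 with miR-15b-5p and -0.47 with miR-16-5p, and rho was -0.60, -0.53 and -0.44 (permutation p of r = 0.0031, 0.00912 and 0.0215, adjusted p = 0.00874, 0.0188 and 0.0392, and of rho = 0.00238, 0.00915 and 0.0332, adjusted p = 0.00615, 0.0189 and 0.0605). Without the 2 farthest libraries these r were -0.43, -0.32 and -0.25, and for deviations from group means -0.52, -0.49 and -0.54. With the other 4 members r lay between -0.20 and 0.17, with no adjusted permutation p under 0.274. The erythrocyte miRNAs did not vary alike, with miR-486a-3p at 4.51 to 236 CPM and miR-451a at 1176 to 4143 CPM over all libraries. How far single miRNAs carry the relations of this list was not tested. The erythrocyte miRNAs summed to 2420 to 2947 CPM in high-fat week 1 libraries, against 1685 to 2344 CPM in control week 1 libraries. On their mean log2 level, the measure used for r, the control week 1 values lay within the high-fat range. That level was 7.26 ± 0.81 on high-fat and 7.09 ± 0.40 on control diet (SD, n = 4 each). The liver miRNA miR-122-5p was 345 to 759 CPM on high-fat at week 1, against 128.3 to 365 CPM on control diet. Epithelial miRNAs, 7 of 7 tested, summed to 8760 to 39049 CPM in high-fat week 1 libraries, against 12756 to 16414 CPM in control week 1 libraries. The part of each of these lists in the result was not tested.

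Ratios within a library do not depend on how libraries are scaled, and 4 were tested for diet and for time, 8 tests in all, with exact two-sided permutation tests. miR-16-2-3p to miR-16-1-3p, the passenger arms of the chromosome 3 and chromosome 14 copies, was -2.90 ± 0.48 on the log2 scale over all libraries (SD, n = 24). Ligation can differ between these arms, so the level of this ratio does not compare the output of the 2 genes. The ratio was -3.30 ± 0.31 in high-fat week 1 libraries, against -2.83 ± 0.55 in control week 1 libraries (SD, n = 4 each). Over the 3 times, high-fat minus control was -0.07 (exact permutation p = 0.722, adjusted p = 0.832), and over both diets week 3 minus day 1 was -0.36 (exact permutation p = 0.157, adjusted p = 0.664). Neither difference exceeded the spread between libraries in these tests, which enumerated 343000 and 4900 regroupings.

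miR-15b-5p to miR-15a-5p, guide arms from different chromosomes, had a lower mean on high-fat diet at week 1 and a higher mean at day 1 and week 3. The log2 ratio was 1.52 ± 0.56 in high-fat day 1 libraries, against 0.92 ± 0.45 in control day 1 libraries (SD, n = 4 each). It was 0.28 ± 0.50 in high-fat week 1 libraries, against 1.11 ± 0.12 in control week 1 libraries, and the groups did not overlap. At week 3 it was 1.27 ± 0.30 on high-fat and 0.80 ± 0.55 on control diet. The diets overlapped at day 1 (0.76 to 2.13 on high-fat, 0.48 to 1.54 on control) and at week 3 (0.86 to 1.56 and 0.10 to 1.35). The differences, high-fat minus control, were 0.60, -0.83 and 0.47 from day 1 to week 3, and their mean of 0.08 had an exact permutation p of 0.720 (adjusted p = 0.832). No single time was tested on its own, and whether the 3 differences differ from each other was not tested. At week 1 the diets overlapped in each of the other ratios examined here. How often ratios of other miRNAs separate between diets was not counted.

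The arms of the miR-15b hairpin and the chromosome 11 guides held steadier ratios. miR-15b-5p exceeded miR-15b-3p by 2.62 ± 0.33 on the log2 scale, and miR-497a-5p was below miR-195a-5p with a log2 ratio of -1.37 ± 0.16 (SD, n = 24). The chromosome 11 pair had the narrowest SD of the 4 ratios. High-fat minus control was -0.12 for the miR-15b arms and -0.01 for the chromosome 11 pair (exact permutation p = 0.422 and 0.858, adjusted p = 0.832 and 0.858). Week 3 minus day 1 was 0.05 and -0.12 (exact permutation p = 0.728 and 0.166, adjusted p = 0.832 and 0.664).

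**Figure D5:**
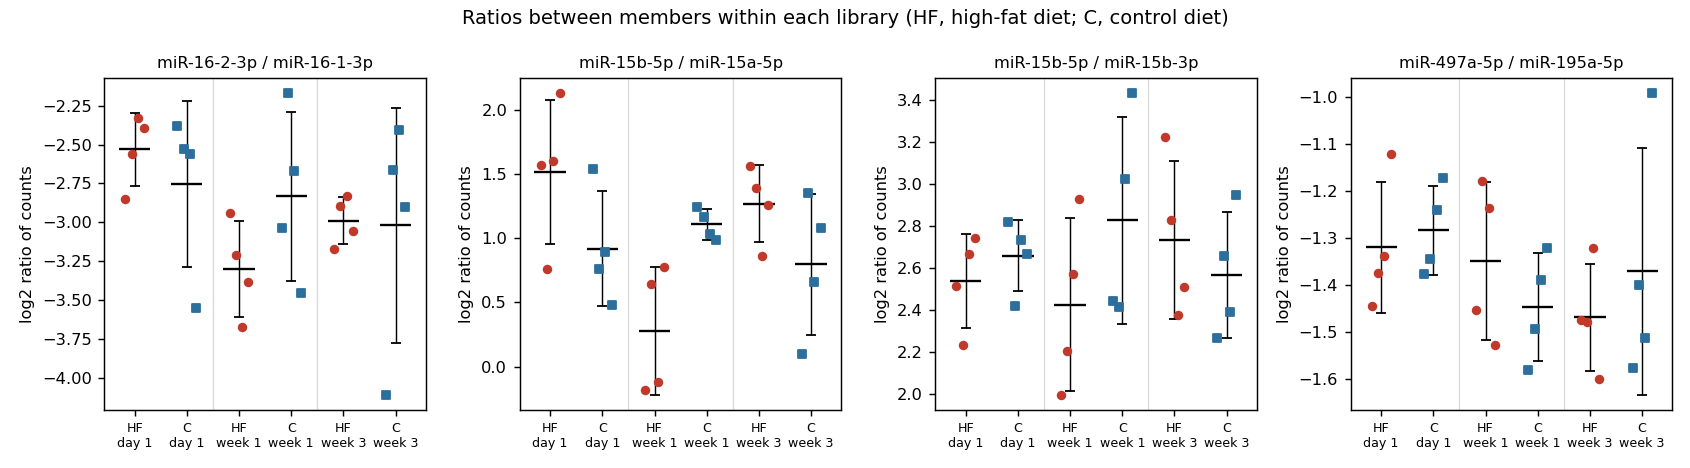
Log2 ratio of counts between 2 members in each library, for 4 ratios, with high-fat groups in red circles and control groups in blue squares; the long bar is the mean and the error bar the SD of 4 libraries. For miR-15b-5p over miR-15a-5p the high-fat week 1 libraries lie between -0.18 and 0.77 and the control week 1 libraries between 0.98 and 1.24. Week 1 was not tested on its own, and how often other ratios separate was not counted.

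Other arms of the same hairpins were in the table. miR-195a-3p averaged 161 ± 31.8 CPM and miR-15a-3p 12.3 ± 2.86 CPM (SD, n = 24). Neither passed the adjusted threshold in the comparisons above, with the lowest adjusted p at week 3 against day 1 over both diets, 0.0860 for miR-15a-3p (log2 fold change 0.44, edgeR) and 0.163 for miR-195a-3p (0.31, edgeR). The guide arms of these hairpins had estimates of -0.05 for miR-15a-5p and 0.16 for miR-195a-5p in that comparison, and the difference between arms was not tested.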

How the data were processed

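Small RNA libraries from subcutaneous adipose tissue were made with a NEBNext kit, per the labels' protocols. The deposited table holds raw counts for 1907 mature miRNA names, made by the authors with FastQC, Trim Galore, Bowtie2 and featureCounts on mm10, per the submitters' processing notes. No source used here gives versions, settings, strand use or how reads matching several places were handled, so counts of near-identical members are uncertain.

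The 558 names kept by filterByExpr (minimum count 10, minimum total 15) were fitted in 1 model of the 6 groups by edgeR 4.0.16 (quasi-likelihood test, R 4.3.3, TMM, robust, Benjamini-Hochberg adjusted p under 0.05 over all 558). The 11 comparisons were diet at each time, its mean and its joint test over times, and weeks 1 and 3 against day 1 per diet and averaged. Correlations used log2(CPM + 0.5), and ratios counts + 0.5. Alternatives included DESeq2 1.42.0 and limma 3.58.1. The fits were tested on simulated data.

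All 8 members were named, with the other arms of their hairpins, names with the same seed, and for each member the 3 miRNAs with the highest r. Members, lists and tests were chosen with earlier results of these data known. Library pairs within a group were compared by chi-square. The statistic was at least 148 per degree of freedom, so no 2 libraries of the same group were alike within counting noise. This check does not tell whether libraries share an animal.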

Additional observations from a re-analysis of the deposited data

How the results depend on the processing

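The count of members called was 0 in all 11 comparisons in edgeR. It was also 0 with RLE size factors, with library totals alone, with no filter on low counts, with a mean CPM of at least 10, and without the 3 libraries lowest in leukocyte miRNAs. Leaving out each of the 24 libraries in turn gave 0 members called in each comparison, with a lowest adjusted p of 0.0518 (high-fat against control at week 1). Shares of all tested miRNAs called under these alternatives are not given here, so these counts do not set the members apart from other miRNAs. Other settings called members in 2 comparisons. For week 1 against day 1 on high-fat diet, DESeq2 called 1 member, beside 5.73% of all tested miRNAs. In that comparison limma-voom with sample quality weights called 3, beside 7.89%. Leaving out the 2 libraries highest in skeletal muscle miRNAs called 1, beside 2.31%. For high-fat against control at week 1, limma-voom called 1, beside 3.05% of all, and leaving out those 2 libraries called 3, beside 9.06%. All members called were from chromosome 3, and the cause was not tested. The 2 libraries left out include the control week 1 library lowest in each chromosome 3 member. They also include the high-fat week 1 library highest in miR-15b-3p, so leaving them out itself widens these differences. Without those 2 libraries the mean diet estimates of miR-195a-5p and miR-497a-5p turned to 0.027 and 0.00076. Week 1 estimates without 1 library ran from -1.09 to -0.71 for miR-15b-5p, from -1.16 to -0.72 for miR-16-2-3p, from -0.93 to -0.31 for miR-15b-3p and from -0.69 to -0.30 for miR-16-5p. For miR-15a-5p the range was -0.43 to -0.19 at day 1, -0.53 to -0.15 at week 3 and -0.34 to -0.20 in the mean. Estimates that crossed 0 when 1 library was left out were miR-15a-5p at week 1 (-0.27 to 0.050) and the ratios of miR-16-2-3p to miR-16-1-3p (-0.19 to 0.0023) and miR-497a-5p to miR-195a-5p (-0.035 to 0.030) by diet and of the miR-15b arms by time (-0.031 to 0.11).

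Same-numbered libraries of different groups were not paired by any label. Their deviations from group means had r from -0.65 to 0.55 over 60 pairs (median -0.03), with 21 over 0.1. Differently numbered libraries had r from -0.64 to 0.69 over 180 pairs (median 0.05), with 79 over 0.1. Same-numbered libraries were thus no more alike as a whole, which cannot exclude pairing between some of the groups. With the replicate number as a block the count of members called was 0 in all 11 comparisons, and the week 1 diet estimates were -0.92 for miR-15b-5p and -0.999 for miR-16-2-3p. The share of all tested miRNAs called with this block is not given here.

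The shallowest library had 1.99 M counts, and 4 libraries a group limit what can be called. At 18.97 CPM on average, miR-16-2-3p rests on the fewest counts of the 8 members.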
